A study of Mus musculus with 13 samples.

Results

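RNA polymerase II (PolII) peaks that were called in control Hepa 1-6 cells and that shared no base with any PolII peak of Kap1 knockdown (Kap1 KD) cells are described here. Hepa 1-6 is a murine hepatoma line. The peaks were chosen by overlap of the deposited lists, and 695 of the 5015 control PolII peaks (13.9%, 95% Wilson interval 12.9 to 14.8%) were without a Kap1 KD peak. They are called control-only peaks below, and the other 4320 control peaks are called shared. Absence from the Kap1 KD list is what selected the control-only peaks, so neither their number nor their distance from Kap1 KD peaks is a test of the knockdown.

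The series comprised 13 ChIP-seq samples, of which 8 have a list of peaks, the stretches where DNA pulled down with an antibody was enriched. PolII was profiled with the antibody CTD4H8 in 1 library of control cells and 1 library of Kap1 KD cells, both fixed 5 days after transduction. Per the labels the control cells received a plasmid for a control shRNA and the Kap1 KD cells one for an shRNA against KAP1, whereas the methods of the study name an empty vector for the control and puromycin selection for both. The lists of KAP1 and of the histone marks H3K27ac, H3K4me1 and H3K9me3 came from 1 library each of cells under standard culture, so these marks were read neither in the control nor in the Kap1 KD cells. PolIII was profiled in both transduced conditions, and the 5 inputs without a list were not analysed here. With 1 library for each antibody and condition no value has a replicate error, and every interval below covers counting error over peaks only. Read counts are not in the files used here, so the depth of the libraries is unknown.

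PolII transcribes protein-coding genes and many non-coding RNAs, and the polymerase is commonly densest near transcription start sites (TSS) and, at strongly transcribed genes, through the gene body and beyond the polyadenylation site. KAP1, the product of Trim28, is a corepressor that KRAB zinc finger proteins bring to DNA, where it can recruit the machinery that deposits H3K9me3, a mark of silenced chromatin. H3K27ac marks active promoters and enhancers, H3K4me1 marks enhancers and the flanks of promoters, and mammalian promoters of widely used genes often lie in CpG islands, where the CG dinucleotide has escaped depletion.

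The Kap1 KD peaks are numbered in genome order up to 16607, and 3745 of these numbers (22.6%) are absent from the list used here. The control list also lacks numbers, since its 5015 peaks are numbered up to 7305, so the control-only peaks are those of the control peaks at hand. A control-only peak was therefore of either of 2 kinds. At 443 of them (63.7%, 60.1 to 67.2%) the flanking Kap1 KD peaks had consecutive numbers, so the list has no missing entry at that place. The other 252 (36.3%, 32.8 to 39.9%) lay in a numbering gap, where a peak may have been called and left out, and whether PolII was called there under Kap1 KD cannot be told from the list. No control-only peak lay beyond the last Kap1 KD peak of a chromosome. Intervals with a missing number made up 18.7% of the length between neighbouring Kap1 KD peaks, beside the 36.3% of control-only peaks that they held. The kinds are kept apart below as consecutive-number peaks and gap peaks.

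Sequence is shown for 3 kinds of consecutive-number peak, since these kinds differ in chromatin. Each line gives 200 bases at the peak centre from the plus strand of NCBIM37 (mm9), with CG dinucleotides in capitals, for 1 or 2 high-scoring sites of its kind. Windows that held an annotated UTR were passed over, and not every higher-scoring site is shown. The first site, which is not the highest-scoring of its kind, had H3K27ac and a TSS within 1 kb, that of Meis2, a homeobox transcription factor gene.
Meis2, chr2:115892062-115892261: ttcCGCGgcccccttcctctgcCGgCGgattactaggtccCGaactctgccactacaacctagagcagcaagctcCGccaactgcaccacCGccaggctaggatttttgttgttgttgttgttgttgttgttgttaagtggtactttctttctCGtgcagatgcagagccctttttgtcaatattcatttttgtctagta
A pair of sites lay in H3K9me3. It comprised an intron of 4833442J19Rik and an intergenic site whose nearest protein-coding TSS, that of Ythdf3, was 444900 bp away.
4833442J19Rik, chr6:149094037-149094236: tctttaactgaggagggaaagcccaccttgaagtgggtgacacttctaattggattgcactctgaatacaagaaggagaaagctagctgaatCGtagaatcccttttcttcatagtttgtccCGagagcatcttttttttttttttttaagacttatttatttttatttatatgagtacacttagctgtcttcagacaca
Ythdf3 distal, chr3:16528036-16528235: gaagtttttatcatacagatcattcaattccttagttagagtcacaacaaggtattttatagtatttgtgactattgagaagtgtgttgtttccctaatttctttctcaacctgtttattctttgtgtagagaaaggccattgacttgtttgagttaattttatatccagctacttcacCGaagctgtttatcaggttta
The last pair held none of the 3 histone marks and no KAP1 peak. It comprised an intron of Dnttip1, where the window reaches into an annotated copy of the 7SK small nuclear RNA (chr2:164587159-164587474), and a site centred 617 bp past the annotated end of Hdlbp, which encodes the RNA-binding protein vigilin.
Dnttip1, chr2:164587120-164587319: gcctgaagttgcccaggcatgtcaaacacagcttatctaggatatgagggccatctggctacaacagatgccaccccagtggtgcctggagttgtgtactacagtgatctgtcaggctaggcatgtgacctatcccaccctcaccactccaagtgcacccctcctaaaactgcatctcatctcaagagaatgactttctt
Hdlbp downstream, chr1:95301800-95301999: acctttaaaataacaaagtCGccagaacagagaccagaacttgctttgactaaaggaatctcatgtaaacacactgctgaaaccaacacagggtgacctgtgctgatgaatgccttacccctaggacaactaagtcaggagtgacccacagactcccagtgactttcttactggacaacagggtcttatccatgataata
These single windows are examples, and no comparison of base composition rests on them.

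The control-only peaks were mostly low-scoring and narrow. The authors' PolII score is a whole number whose meaning was not stated, and it is used here to rank peaks within a list. The median score was 23 (quartiles 19.0 and 32.0) at consecutive-number peaks, 26.0 (19.0 and 42.0) at gap peaks and 43.0 (29.0 and 73.0) at shared peaks. Median widths were 497, 516 and 1003 bp. Among control peaks with a score of 24 or less, 35.2% (32.3 to 38.2%) were control-only, against 3.31% (2.36 to 4.61%) among those scoring 80 or more. The kinds parted at the top of the range. Of the 33 control-only peaks scoring 80 or more, 4 were consecutive-number peaks and 29 (87.9%) were gap peaks, whereas at scores of 24 or less gap peaks were 32.1% of the control-only peaks.

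**Figure D1:**
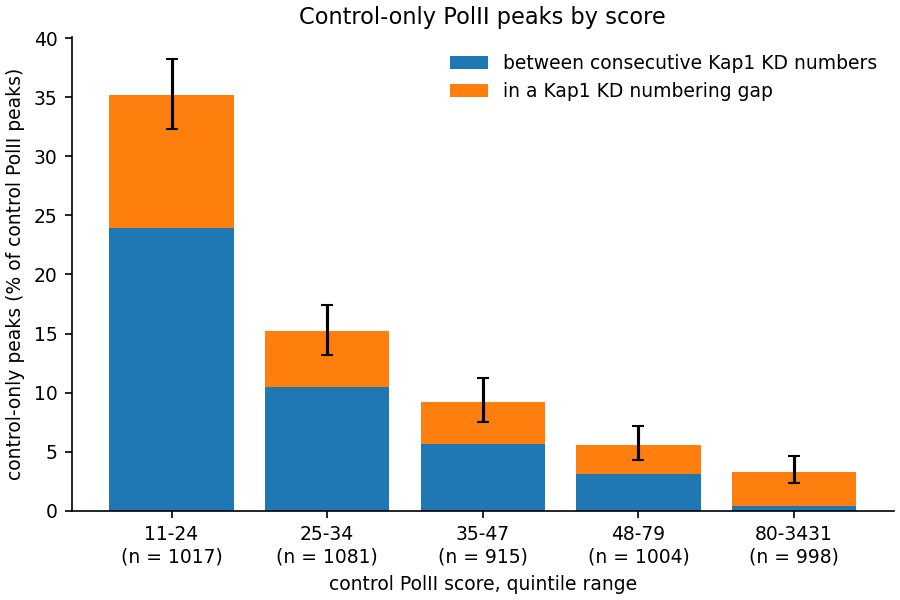
Share of control PolII peaks that were control-only (y axis, %) in 5 score classes (x axis, score range with the number of control peaks), with consecutive-number peaks in blue, gap peaks in orange and 95% Wilson intervals of the sum as bars. The share went from 35.2% in the lowest class to 3.31% in the highest, where the consecutive-number part was 0.401%.

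The distance to the nearest Kap1 KD peak had a median of 13101 bp at consecutive-number peaks and 8875 bp at gap peaks. Of all control-only peaks, 70 (10.1%) lay within 1 kb of a Kap1 KD peak, 234 (33.7%) within 5 kb and 583 (83.9%) within 100 kb. The 3 members nearest to a Kap1 KD peak lay 6 bp (at Racgap1), 28 bp (at Uqcc) and 31 bp (at Pcolce2) from it, with scores of 34, 25 and 14. Just outside the rule, the 3 shared peaks with the fewest shared bases had 8 bp (at Ptges3), 10 bp (at Zkscan5) and 20 bp (at Kcnip1) in common with a Kap1 KD peak, with scores of 55, 23 and 18. Such cases were few on the shared side, where 2235 of 4320 peaks lay wholly inside Kap1 KD peaks and 87 shared 100 bp or less.

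**Figure D2:**
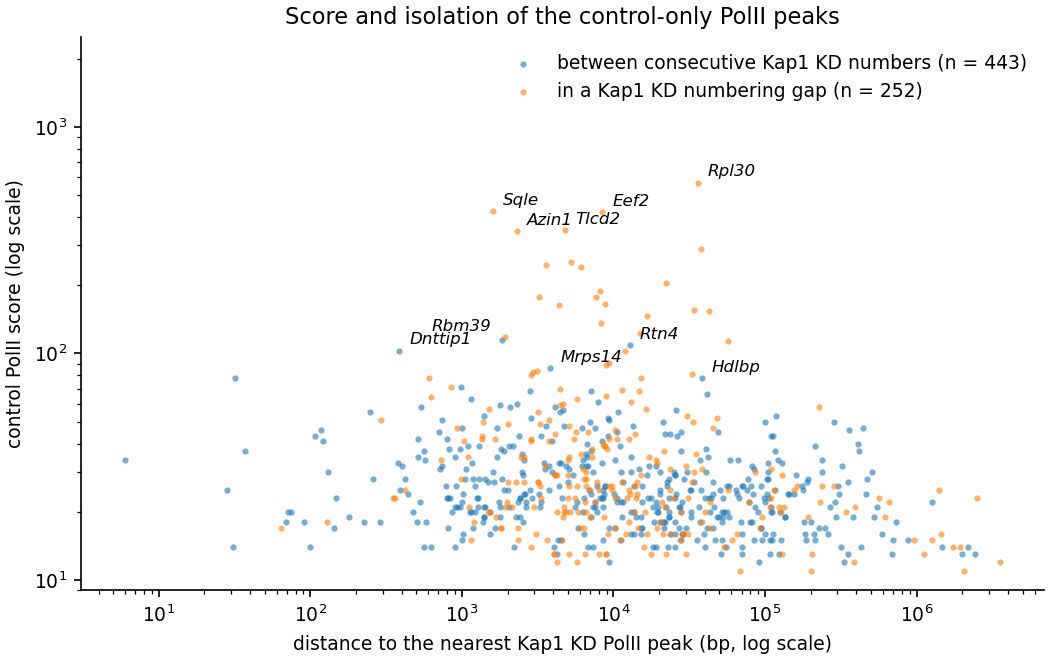
Control PolII score (y axis, log scale) against the distance to the nearest Kap1 KD PolII peak (x axis, bp, log scale) for each control-only peak, consecutive-number peaks in blue and gap peaks in orange. The 5 highest-scoring peaks of each kind are named, with ties in genome order, and those of the gap peaks, from 347 at a site nearest to Azin1 to 568 at Rpl30, all score above the highest consecutive-number peak, which scores 115 at Rbm39.

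Fewer control-only peaks than shared peaks lay at promoters. A TSS of a protein-coding gene was within 1 kb of the centre of 30.7% of consecutive-number peaks (136 of 443) and of 9.92% of gap peaks (25 of 252), against 60.2% of shared peaks. For all control-only peaks together the difference from shared peaks was -37 percentage points (95% Newcombe interval -40.4 to -33.5), and with shared peaks reweighted to the same score classes it was -39.6 (-43.4 to -35.8). Introns more than 3 kb from a TSS held 30.7% of consecutive-number and 28.2% of gap peaks, against 9.77% of shared peaks. Intergenic sites beyond 3 kb held 27.1%, 53.6% and 17.8%. The gap peaks exceeded the consecutive-number peaks at intergenic sites by 26.5 points (19.0 to 33.7), and the median distance to a TSS was 17109 bp in the former, 6700 bp in the latter and 388 bp in shared peaks.

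Consecutive-number peaks away from promoters had a Kap1 KD peak at the start of the same gene in shares close to those of shared peaks. More than 1 kb from any TSS, 177 consecutive-number peaks lay inside a protein-coding gene and 40 lay within 10 kb past the end of one. The TSS of that gene had a Kap1 KD peak within 1 kb for 112 of the 177 (63.3%, 56.0 to 70.0%) and for 29 of the 40 (72.5%, 57.2 to 83.9%). The same shares at shared peaks were 63.5% (60.2 to 66.7%) and 75.9% (71.3 to 79.9%), and at gap peaks 35.2% (26.1 to 45.6%, 31 of 88) and 36.8% (19.1 to 59.0%, 7 of 19). The Kap1 KD list read here also defined the 3 kinds of peak, so these shares are description and not a test. For the consecutive-number peaks, a control peak lay within 1 kb of that TSS at 91 of the 177 (51.4%, 44.1 to 58.7%) and 22 of the 40 (55.0%, 39.8 to 69.3%). The marks at the in-gene peaks differed more: H3K27ac was on 12.4% of the consecutive-number and 53.4% of the shared ones, and H3K4me1 on 29.9% and 59.7%. Median scores there were 26 and 63. A further 90 consecutive-number peaks lay neither in a gene nor within these distances, and of these 37.8% had H3K9me3 and 23.3% H3K27ac, against 15.2% and 72.3% of such shared peaks. Inside genes, 38.4% of the consecutive-number peaks lay in the last part of the gene, past 2/3 of its length, against 47.7% of the shared ones. The peaks downstream of genes had a median distance of 1452 bp from the gene end.

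Of the highest-scoring consecutive-number peaks, 5 lay inside or just past a gene whose start had a Kap1 KD peak, the last of them tied at a score of 78 with a peak within 1 kb of a TSS of Zfr. The highest, with a score of 115, was a peak of 3951 bp in Rbm39 (chr2:155975485-155979435, intronic), which encodes an RNA-binding splicing factor, and the nearest Kap1 KD peak was 1836 bp away in an interval of 7.66 kb. A peak of score 109 lay in Rtn4 (chr11:29607541-29611385, intronic), the gene of the membrane protein Nogo, 12776 bp from a Kap1 KD peak. In Dnttip1 (chr2:164585441-164588999, intronic, score 103), which encodes a subunit of a histone deacetylase complex, a Kap1 KD peak was 383 bp away. Mrps14, the gene of a mitochondrial ribosomal protein, held a peak of score 86 over an exon near its end (chr1:162129313-162132390), and the peak past Hdlbp scored 78 (chr1:95300689-95303111). At all 5 genes the TSS had a Kap1 KD peak within 1 kb, and at Rbm39, Rtn4 and Hdlbp it also had a control peak. None of the 5 peaks overlapped H3K27ac, KAP1 or H3K9me3, and those of Rbm39 and Rtn4 overlapped H3K4me1. A further peak with this position was centred 194 bp past the end of Wdr43, a gene for ribosome biogenesis (chr17:72007522-72009609, score 66).

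**Figure D3:**
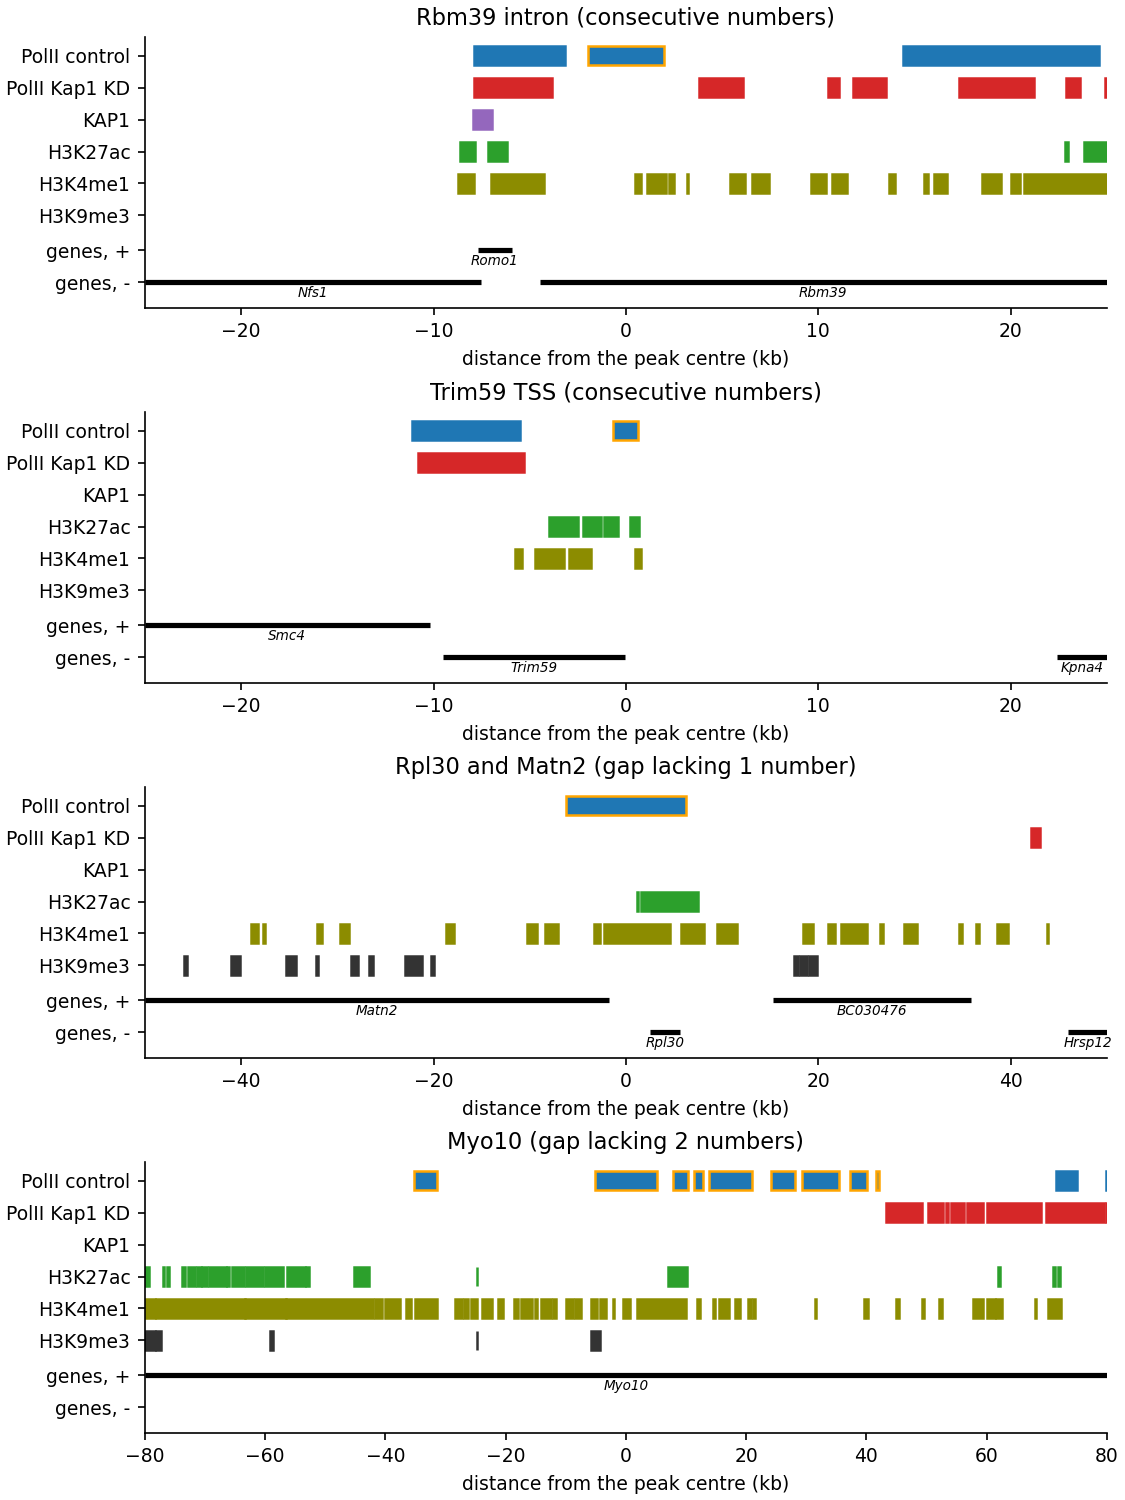
Regions of the PolII, KAP1 and histone mark lists (rows) by distance from the centre of a control-only peak (x axis, kb) at Rbm39, Trim59, Rpl30 and Myo10, with protein-coding genes by strand below. Control-only peaks are outlined in orange, and at Myo10 a run of 9 of them faces no Kap1 KD peak in an interval that lacks 2 Kap1 KD numbers.

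Among protein-coding genes, 3881 had a control PolII peak over the gene or the 250 bp before it, and 426 of these (11.0%) held a control-only peak. Of the 426 genes, 259 (60.8%) also held a Kap1 KD peak elsewhere. The remaining 167 genes, 4.30% of the 3881, had a control-only peak and no Kap1 KD peak over the gene. At 136 of them all control-only peaks lay between consecutive numbers. At the promoter itself (250 bp to each side of the gene start), 136 of 2941 promoters with a control peak (4.62%) held a control-only peak and no Kap1 KD peak, and 34 of these genes had a Kap1 KD peak elsewhere over the gene.

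The 3 highest-scoring consecutive-number peaks with H3K27ac and a TSS within 1 kb lay at Trim59 (chr3:68848067-68849372, score 56), a gene of the tripartite motif family of ubiquitin ligases, at 1110034G24Rik (score 53), an uncharacterized gene, and at Meis2 (chr2:115891317-115893006, score 50). Their nearest Kap1 KD peaks were 4654, 117576 and 284443 bp away. At Trim59 that neighbour covered the other end of the gene, so Trim59 had a Kap1 KD peak, while Meis2 and 1110034G24Rik had none. The 1110034G24Rik peak lay near an internal TSS and not at the gene start. A peak with H3K27ac near a TSS of AI846148 tied with that of Meis2 at a score of 50, and ties were named in genome order. Among genes with a consecutive-number peak at the promoter and no Kap1 KD peak, picked for their scores after these were seen, were Snx30 (score 44), a sorting nexin gene, and Tgfbr1 (34), the gene of a TGF-beta receptor. A peak of score 34 on chromosome 8 covered the promoters of both Urb2 and Taf5l, which are transcribed away from each other. Base composition at these promoters was close to that at shared ones, with 75% (67.1 to 81.5%) of consecutive-number peaks at a TSS having a CpG-rich window (over 50% GC and an observed to expected CpG ratio over 0.6 in the central 300 bp), against 77.4% (75.8 to 79.0%) of shared peaks at a TSS. H3K27ac overlapped 33.8% of these consecutive-number peaks (46 of 136) and 74.5% of the shared ones, and H3K4me1 16.9% and 42.0%. Median widths there were 444 and 891 bp, and a region beside a narrow peak did not count. In examples without overlap, the nearest H3K27ac region was 37 bp away at Ampd2, 79 bp at Ttf1 and 46092 bp at Dnajb5. These shares therefore do not show that the promoters lacked the marks.

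The GGGCGG motif of GC boxes, searched on both strands of the central 300 bp, was in 21.4% of consecutive-number windows, 9.52% of gap windows and 40.3% of shared windows, and in 45.8% of windows of that length at all protein-coding gene starts. Within 1 kb of a TSS the shares were 52.9% (44.6 to 61.1%) at consecutive-number peaks and 58.3% (56.4 to 60.2%) at shared peaks, and beyond that 7.49% (5.04 to 11.0%) and 13.0% (11.5 to 14.6%). CCGGAA, the core of ETS factor sites, was in 19.9% (14.0 to 27.3%) and 26.6% (24.9 to 28.3%) of the same windows at a TSS, in 2.93% (1.55 to 5.48%) and 6.75% (5.66 to 8.03%) beyond that, and in 18.6% at all gene starts. The share with TATAAA was 15.3% at consecutive-number, 24.6% at gap and 9.72% at shared peaks, with 10.8% at all gene starts. Within 1 kb of a TSS it was 5.88% (3.01 to 11.2%) at consecutive-number and 5.19% (4.4 to 6.11%) at shared peaks, and beyond that 19.5% (15.5 to 24.3%) and 16.6% (14.9 to 18.4%). None of these motifs contains another. A match says that the letters are there and does not locate a bound factor.

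H3K27ac and KAP1 were less frequent at control-only peaks of both kinds than at shared peaks. H3K27ac regions overlapped 20.5% of consecutive-number peaks (91 of 443) and 22.2% of gap peaks (56 of 252), against 67.7% of shared peaks. The pooled difference from shared peaks was -46.5 points (-49.7 to -43.0) and -35.3 (-39.0 to -31.6) with shared peaks reweighted by score. KAP1 peaks overlapped 12.6% of consecutive-number peaks and 13.9% of gap peaks, against 44.1% of shared peaks, a pooled difference of -31.0 points (-33.7 to -27.9), or -25.2 (-28.4 to -21.9) with the reweighting. At a TSS the KAP1 share was 27.2% at consecutive-number and 51.6% at shared peaks (difference -24.4, -31.4 to -16.1), while for the 25 gap peaks it was 44.0% and the interval of the difference (-25.0 to 11.5) held 0. Beyond 1 kb of a TSS it was 6.19%, 10.6% and 32.7% at consecutive-number, gap and shared peaks. H3K4me1 was on 25.1% of consecutive-number, 46.4% of gap and 48.3% of shared peaks. The difference from shared peaks was -23.3 points (-27.4 to -18.8) for consecutive-number peaks and -1.90 (-8.14 to 4.44) for gap peaks. Without chromosomes 15 and X, where many gap peaks lay, the latter was -21.8 (-28.4 to -14.0). At a TSS the 25 gap peaks exceeded shared peaks by 22.0 points (2.44 to 37.9). The pooled difference of -15.5 points (-19.2 to -11.7) did not hold under each setting. It was -0.805 (-4.77 to 3.16) after the reweighting and 0.733 (-2.82 to 4.48) with each peak cut to 500 bp around its centre. For consecutive-number peaks alone it was -6.40 (-10.9 to -1.90) after the reweighting. PolIII peaks of control cells overlapped 2.16% of control-only and 1.55% of shared peaks, and the interval of this difference (-0.334 to 2.02 points) held 0.

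**Figure D4:**
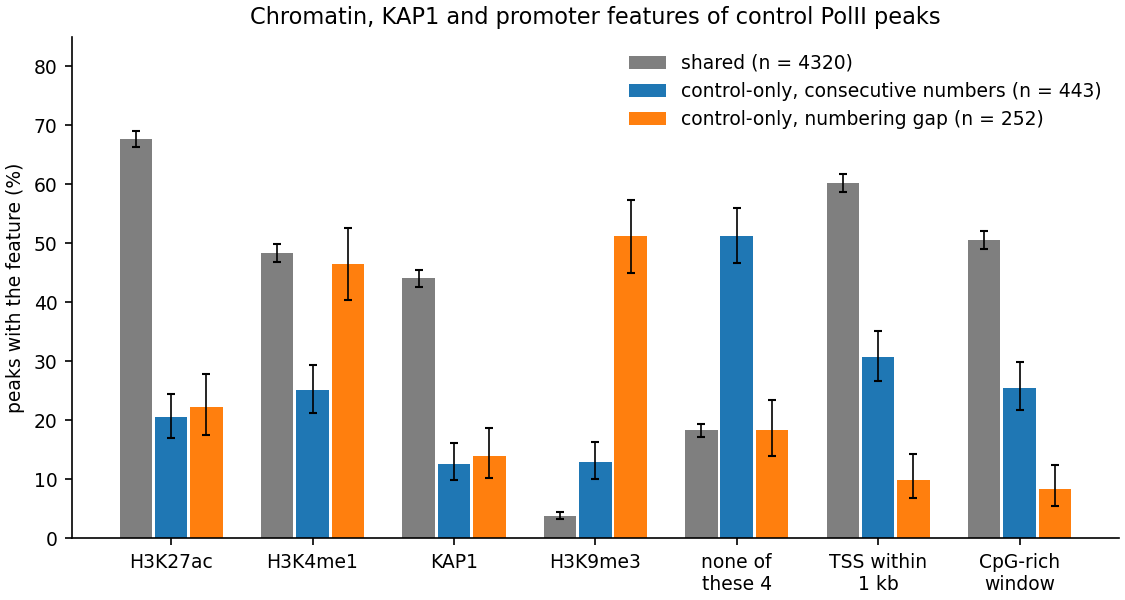
Share of peaks (y axis, %) with each feature (x axis) for shared peaks in grey, consecutive-number control-only peaks in blue and gap peaks in orange, with 95% Wilson intervals. H3K27ac and KAP1 are at 20.5% and 12.6% of consecutive-number peaks against 67.7% and 44.1% of shared peaks, H3K9me3 is at 51.2% of gap peaks, and 51.2% of consecutive-number peaks have none of the 4.

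A KAP1 peak met 56 consecutive-number peaks, of which 37 had a TSS within 1 kb, 27 had H3K27ac and 8 had H3K9me3. It met 35 gap peaks, of which 11 had a TSS within 1 kb, 24 had H3K27ac and 8 had H3K9me3. Of the 1903 shared peaks with KAP1, 1341 had a TSS within 1 kb, 1598 had H3K27ac and 54 had H3K9me3. The 3 highest-scoring consecutive-number peaks with KAP1 were those at Zfp503 (chr14:22802427-22804416, score 58), which encodes a zinc finger transcriptional repressor, at the shared promoter of Mapk1ip1 and Ppp2r2d (chr7:146037452-146038602, score 46), the latter the gene of a regulatory subunit of protein phosphatase 2A, and near Ell (chr8:73062070-73063443, score 46), the gene of a PolII elongation factor. The Zfp503 peak covered an exon near the gene end and overlapped H3K9me3, and its KAP1 peak scored 1164, against 69.6 at Ppp2r2d and 155 near Ell, both of which had H3K27ac and H3K4me1. Kap1 KD peaks lay 540 bp from the Zfp503 peak, 118 bp from the Ell peak and 358983 bp from the Ppp2r2d peak.

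About as many consecutive-number peaks overlapped none of these features as overlapped any. Neither a histone mark region nor a KAP1 peak overlapped 227 of the 443 (51.2%, 46.6 to 55.9%), against 18.3% of both gap peaks and shared peaks. The difference from shared peaks was 33.0 points (28.2 to 37.7). The peaks of Dnttip1, Mrps14 and Hdlbp were the highest-scoring of this kind, the last tied at a score of 78 with the Zfr peak.

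H3K9me3 ran the other way and separated the kinds of control-only peak. It overlapped 12.9% of consecutive-number peaks (57 of 443), 51.2% of gap peaks (129 of 252) and 3.84% of shared peaks (166 of 4320). The difference from shared peaks was 9.02 points (6.16 to 12.5) for consecutive-number peaks and 6.38 (3.01 to 9.74) with shared peaks reweighted by score. Beyond 1 kb of a TSS it was 8.81 (4.70 to 13.6). Gap peaks exceeded consecutive-number peaks by 38.3 points (31.3 to 45). Neither H3K27ac nor H3K4me1 was on 48 of the 57 consecutive-number, 83 of the 129 gap and 109 of the 166 shared peaks in H3K9me3. The 3 highest-scoring consecutive-number peaks with H3K9me3 lay between genes near Wac (chr18:7858457-7860796, score 68), at Zfp503 and in an intron of 4833442J19Rik (chr6:149093324-149094949, score 52).

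Many of the H3K9me3 peaks were gathered at a few places, several of them with groups of genes of similar name. The places were chosen after the positions were seen. Dividing the genome in steps of 3 Mb, 8 steps held at least 5 of them and 66 of the 186 in all (35.5%), of which 60 were gap peaks. The same steps, which were picked for their control-only peaks, held 26 of the 166 shared peaks with H3K9me3 (15.7%). The step at 144 to 147 Mb of chromosome 4 held 13, and the nearest genes were Rex2, Zfp600 and predicted genes of the same region, where zinc finger genes lie in tandem. At 66 to 69 Mb of chromosome 13, 10 lay near Zfp640, 2410141K09Rik and vomeronasal receptor pseudogenes. The step at 30 to 33 Mb of chromosome X held 10, all near predicted genes, and that at 60 to 63 Mb of chromosome 4 held 9 among the Mup genes, which encode the major urinary proteins made in liver. At 6 to 9 Mb of chromosome 17, 7 lay near Tulp4, Sytl3 and copies of Dynlt1 and Tmem181. Between 41 and 445 Kap1 KD numbers were absent in each of the 8 steps. How alike the genes at these sites are in sequence was not measured here. Near-identical copies would share reads, and the treatment of reads with several matches was not given in the sources used here. The position of PolII among any such copies is therefore uncertain.

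The highest-scoring gap peaks were broad, from 6879 to 13069 bp, and 4 of the 5 covered known genes. A peak of 12555 bp and score 568 (chr15:34361515-34374069) covered Rpl30, a ribosomal protein gene, and the end of Matn2, and held a small nucleolar RNA gene. The peak of score 425 at the end of Sqle (chr15:59156416-59169484, 13069 bp), which encodes squalene epoxidase of cholesterol synthesis, was 1600 bp from a Kap1 KD peak, and the TSS of Sqle had one. Eef2, the gene of translation elongation factor 2, lay within a peak of score 420 (chr10:80639192-80646136), and the microRNA gene Mir22 next to Tlcd2 within one of score 349 (chr11:75273303-75281429). The peak of score 347 (chr15:38381977-38388855) was intergenic, 41727 bp from the TSS of Azin1. The intervals around the peaks of Rpl30, Sqle, Eef2 and Azin1 each lacked 1 number and that of Mir22 lacked 2, so these peaks cannot be read as loss of PolII under Kap1 KD.

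Some gaps held more control-only peaks than missing numbers. This was so for 10 of the 208 gaps with control-only peaks, which together held 32 of them, 20 more than the numbers they lacked. The runs described here were chosen after their values were seen. The largest was in Myo10, the gene of an unconventional myosin of filopodia, where 9 control-only peaks with scores from 35 to 289 lay between chr15:25601862 and 25679247 in an interval of 135 kb that lacked 2 numbers. Of the 9 peaks, 7 overlapped H3K4me1, 1 H3K27ac, 1 H3K9me3 and none KAP1. In Pvt1, the long non-coding RNA gene next to Myc, 5 control-only peaks with scores from 46 to 91 (chr15:61918925-61938340) faced 1 missing number, and a further 4 with scores from 31 to 155 (chr15:62040397-62095856) faced 2. All 5 of the first run and 3 of the 4 of the second overlapped H3K4me1. Since a broad peak can cover several narrow ones, the counts do not show that a control-only peak in these runs lacked a Kap1 KD call.

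Myo10 and Pvt1 belong to an uneven spread over chromosomes. On chromosome 15, 151 of 494 control PolII peaks (30.6%, 26.7 to 34.8%) were control-only, 70 of them consecutive-number peaks, and on chromosome X 33 of 68 (48.5%, 37.1 to 60.2%) were, 8 of them consecutive-number peaks. The share on the other chromosomes lay between 6.03% on chromosome 11 and 20.3% on chromosome 14. Consecutive-number peaks alone stood apart less. They were 14.2% of control peaks on chromosome 15 and 11.8% on X, against 5.00% on chromosome 11 to 13.9% on chromosome 16. At 60 to 65 Mb of chromosome 15, which includes Pvt1, 30 of 47 control peaks were control-only, 25 as gap peaks. Chromosomes 15 and X held 42.1% (36.1 to 48.2%) of gap peaks, 17.6% (14.3 to 21.4%) of consecutive-number peaks and 8.75% of shared peaks. Without them, 11.5% of control peaks were control-only. The difference in H3K4me1 between gap and consecutive-number peaks, 21.4 points (14.0 to 28.6), was 2.88 (-4.95 to 11.5) without these chromosomes, and that in H3K27ac went from 1.68 (-4.49 to 8.22) to -10.3 (-16.5 to -2.92). The difference in H3K9me3 was 52.9 points (44.0 to 60.7) without them.

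**Figure D5:**
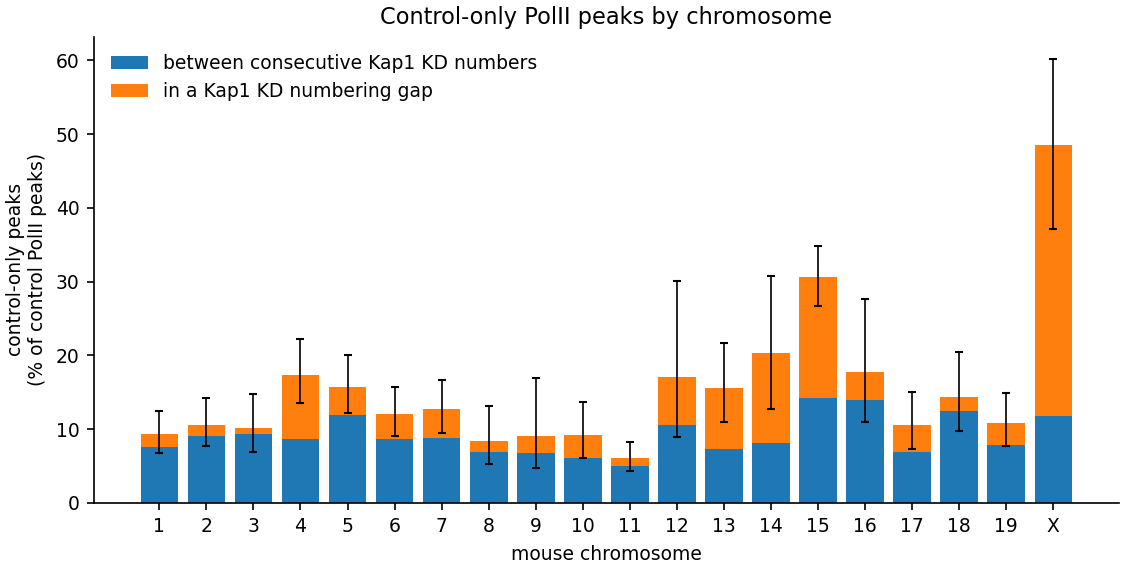
Share of control PolII peaks that were control-only (y axis, %) on each mouse chromosome (x axis), with consecutive-number peaks in blue, gap peaks in orange and 95% Wilson intervals of the sum as bars. In the sum, chromosomes 15 (30.6%) and X (48.5%) stand above the others, and on X 25 of the 33 control-only peaks are gap peaks. The consecutive-number part is 14.2% and 11.8% there and reaches 13.9% on chromosome 16.

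Gene groups of housekeeping and liver functions are given beside the 11.0% of all protein-coding genes with a control PolII peak that held a control-only peak. None of the 61 replication-dependent histone genes with a control peak held one, and neither did any of the 11 aminoacyl-tRNA synthetase, 10 heat shock and 4 liver transcription factor genes. Of 73 ribosomal protein genes 1 did, Rpl30. Translation factors had 6 of 38, of which Eef2 was the gap peak already named. The others were consecutive-number peaks over Eif4b (score 51), Eif5 (45), Eif4g1 (32 and 31), Eif2s2 (28) and Eif2b3 (22), the gene of a subunit of the exchange factor eIF2B. The peak of Eif2b3 and the higher of the Eif4g1 peaks lay within 1 kb of a TSS. Kap1 KD peaks were present over Eif4b, Eif5, Eif4g1 and Eif2s2 and not over Eif2b3. In oxidative phosphorylation 3 of 28 genes held one. Among them were Ndufb9, with a gap peak of score 83, and Ndufab1, which encodes the mitochondrial acyl carrier protein, with a consecutive-number peak of score 16 at its TSS, KAP1 on it and no Kap1 KD peak over the gene.

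Of 13 proteasome genes Psmc3 had a control-only peak (score 17), and of 3 sterol synthesis genes Sqle. The 7 plasma protein symbols included Apoc2, an apolipoprotein gene (score 23), and Apobec1 (score 20), which encodes an mRNA editing enzyme and matched the group by its symbol. Among 13 immediate early and stress genes 1 was counted, Egr1, the gene of a zinc finger transcription factor induced by growth factors. Its control peak was 162 bp wide with a score of 14 (chr18:35020783-35020944), centred 3 bp from the gene start, overlapped KAP1 and no histone mark region, and the nearest Kap1 KD peak was 70315 bp away between consecutive numbers. Zinc finger genes had 8 of 84, with 3 that had no Kap1 KD peak over the gene: Zfp68 (score 30, in H3K9me3), Zfp160 (25, at the TSS) and Zfp35 (17, at the TSS, in H3K27ac). Small RNA genes (annotated as snRNA, snoRNA or miRNA) are not part of the protein-coding base, and of 252 with a control peak 5 (1.98%) lay in control-only peaks: Mir22, SNORA72 and Snord37 in gap peaks, and a U6 copy at Zfr (score 78) and a predicted microRNA AL606704.1 (score 71) in consecutive-number peaks. The 7SK copy in the Dnttip1 peak is annotated under another type and was not among those counted. The Zfr peak lay 32 bp from a Kap1 KD peak.

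A PolIII peak of either condition overlapped few control-only peaks. The 3 highest-scoring consecutive-number peaks with a PolIII peak were the intergenic site 444900 bp from Ythdf3 (chr3:16527399-16528872, score 47) and an intron of Ppa2 (chr3:133014348-133015372, score 38), both with PolIII in control cells, and an intron of Mosc2 (chr1:186638259-186639420, score 45), with PolIII under Kap1 KD. The first held H3K9me3 and H3K4me1 and the others no mark. Of the 695 control-only peaks, 15 (2.16%) met a control PolIII peak and 4 (0.576%) one of Kap1 KD cells. The shares of all control PolII peaks were close, at 1.64% and 0.678%. The PolIII lists were of unequal length, with 2772 peaks in control and 431 in Kap1 KD cells.

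The number of control-only peaks depends on the unequal lists, since the Kap1 KD list held 12862 PolII peaks and the control list 5015. With the Kap1 KD list cut to its 5015 highest-scoring peaks, 1847 control peaks (36.8%) had no counterpart, and the differences from shared peaks were -31.2 points for H3K27ac, -20.2 for KAP1, 12.4 for H3K9me3 and -9.28 for a TSS within 1 kb. Above the median control score of 40 there were 132 control-only peaks (5.39% of such peaks).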

How the data were processed

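Per the methods of the study, the authors aligned the reads behind the peak lists to mm9 using Bowtie1. MACS, run against total input, gave the peaks of KAP1 and PolII, and ChIP-Part the histone mark regions. Exact versions and options are not given in the sources used here. The deposited lists hold positions and, for the polymerases and KAP1, the authors' score for each peak, a number whose meaning was not stated for PolII. The depth of the libraries is unknown.

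Groups followed the antibody and cell labels. Control PolII peaks were split by whether at least 1 bp was shared with a Kap1 KD PolII peak, and by the Kap1 KD numbers on both sides. Overlap with the other lists, GENCODE M1 genes and NCBIM37 sequence was computed with Python 3.11.15, numpy 2.4.6 and pandas 2.3.3. A distance of 1 means abutting regions. The interval code was tested on simulated regions. Shares carry 95% Wilson and differences 95% Newcombe intervals, or a normal interval after reweighting to 5 score classes. No p-value was computed, since peaks are not replicates. Sites were named by score within fixed classes, and gene groups by symbol or type. The members, lists and rules were chosen with earlier results of these data known. Bins of 3 Mb and 5 Mb and the alternatives without chromosomes 15 and X or by TSS distance were added after the data were seen. Some items are not reported here.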

Additional observations from a re-analysis of the deposited data

How the results depend on the processing

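The number of control-only peaks was within 1.5 times of 695 when Kap1 KD peaks within 200 bp or 1 kb also counted, when less than 0.5 of a peak had to be covered, after merging, and without chromosome 15 or chromosomes 15 and X. It was 461 with Kap1 KD peaks within 5 kb counted, 443 between consecutive numbers, 1847 against a Kap1 KD list of equal length and 132 above the median score. For control-only peaks of both kinds pooled, or consecutive-number peaks alone, the differences from shared peaks in H3K27ac, KAP1, H3K9me3 and TSS kept their sign and an interval without 0 in the alternatives run. H3K4me1 did not: -0.805 points after reweighting by score, 0.145 above the median score and 0.733 with peaks cut to 500 bp; the cause was not tested. PolIII gave 1.18 with lists of equal length and 1.14 with peaks cut to 500 bp, both with intervals above 0, and -0.796 above the median score. The gap against consecutive-number difference in H3K27ac was -2.40 with peaks cut to 500 bp and -10.3 without chromosomes 15 and X. No paired analysis was possible because each condition has 1 library and no result comes from a test over samples. Leaving out a replicate was not possible for the same reason. The unknown depth limits all counts.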
